A study of Mus musculus with 48 samples.

Results

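Thoracic aortas of 7 male mice that carried a dissection or an aneurysm after β-aminopropionitrile (BAPN), the MaAAD group, were compared with those of 10 male mice that drank plain water, the MaCon group. The 17 libraries were chosen by their labelled group from the 48 libraries of the series, which also hold 4 MaNonAD libraries from BAPN-treated males without a lesion and the female groups. All mice were wild-type C57BL/6J animals with no transgene. MaAAD mice drank water with 0.4% BAPN for 28 days from 3 weeks of age, and MaCon mice drank normal water over the same period. Each library came from 1 mouse. The ascending aorta, the arch and the proximal descending aorta were dissected after perfusion with saline, and the study's methods name lesioned segments as the source of the RNA, without saying which segment was used in control mice. Dissection and aneurysm were pooled under 1 label, so the 2 kinds of lesion cannot be told apart here. The MaAAD mice were survivors at the end of treatment, so animals that died of rupture before then do not enter the comparison. The agent and the lesion go together in MaAAD, so their parts cannot be told apart from the contrast with MaCon alone. MaNonAD mice had the agent without a lesion, and no contrast with them was tested here.

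BAPN inhibits lysyl oxidases, the enzymes that cross-link newly made collagen and elastin. In a growing mouse the wall then gains matrix that is poorly cross-linked, and the medial layers can tear. A torn aortic wall is known for loss of contractile smooth muscle markers, for breakdown of elastic fibres by proteases and for entry of monocytes and neutrophils that clear blood and debris.

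The libraries held 14193298 to 17281262 counts each. MaAAD libraries averaged 16036493 ± 627278 (SD, n = 7) and MaCon libraries 15374296 ± 602175 (SD, n = 10), a difference that passed a two-sided exact permutation test (p = 0.0435). Levels are given as CPM, counts scaled to the library total with TMM factors, with the lowest, the highest and the median library of a group. They compare 1 gene between libraries and not 1 gene with another, since they are not per length. A differentially expressed gene (DEG) had a Benjamini-Hochberg adjusted p below 0.05 in edgeR's quasi-likelihood test and a log2 fold change of at least 1 in size. The fit used all 48 libraries in their 6 groups. Of 14431 genes tested, 1639 were DEGs (11.4%), of which 1325 were higher in MaAAD (9.18%) and 314 were lower (2.18%), and the median log2 fold change over all tested genes was -0.03. For 6.14% of tested genes every MaAAD library lay above every MaCon library, and for 2.77% every one lay below. The mean of the 4 MaNonAD libraries lay between those of MaCon and MaAAD for 1271 of the 1325 rises and 300 of the 314 falls. Its place varied. Acan was at 123 to 202 CPM in MaNonAD, against 39.0 to 90.6 CPM in MaCon and 142 to 206 CPM in MaAAD. Ccl2 was at 0.828 to 2.46 CPM in MaNonAD, against 0.133 to 2.11 CPM in MaCon and 5.84 to 85.8 CPM in MaAAD.

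The lesion libraries differed more among themselves than the controls did. The mean correlation of a library with the others of its group, across genes on a log scale, was 0.976 to 0.986 in MaCon and 0.970 to 0.978 in 5 MaAAD libraries, but 0.955 in MaAAD7 and 0.947 in MaAAD1. MaAAD7 was the highest lesion library for 919 of the 1325 genes that rose (69.4%), against 143 for MaAAD5 and 111 for MaAAD1. Without MaAAD7 there were 1458 DEGs, and 1428 of the 1639 were still called in the same direction. MaAAD1 had the lowest summed level of the smooth muscle markers (11779 CPM) and the highest of the brown fat markers (2607 CPM), while MaAAD7 had the highest of the heart muscle (510 CPM, next lesion library 65.8, control MaCon6 341), platelet (400 CPM, next 72.0) and red blood cell markers (2124 CPM). The part of these cell sources in the differences was not tested. In whole tissue, fewer cells of a type and less RNA per cell cannot be told apart.

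**Figure D1:**
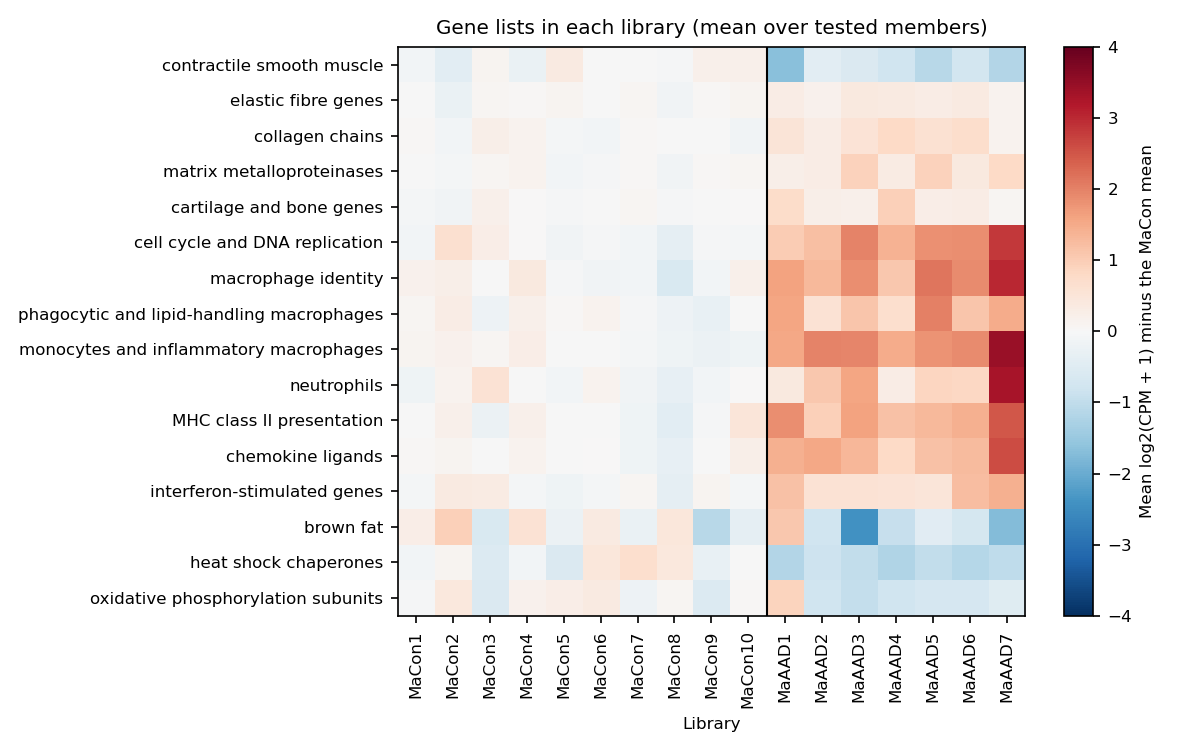
Heat map of 16 gene lists (rows) in the 10 MaCon and 7 MaAAD libraries (columns), with colour for the mean log2(CPM + 1) of the tested members minus the MaCon mean. The contractile and heat shock rows are below the MaCon mean in all 7 MaAAD libraries, the myeloid rows are above it in all 7 and highest in MaAAD7 or MaAAD5, and MaAAD1 stands apart in the brown fat and oxidative phosphorylation rows.

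Markers that define the tissue were present in all 17 libraries. The 7 smooth muscle markers summed to 27762 to 59948 CPM in MaCon and to 11779 to 29353 CPM in MaAAD, and 4 of the 7 fell. Endothelial markers summed to 512 to 846 CPM in MaCon and to 482 to 977 CPM in MaAAD, and none of the 6 was called. Fibroblast markers summed to 2778 to 3907 CPM and to 2596 to 4389 CPM, with a call for Lum alone. Macrophage markers ran from 264 to 347 CPM in MaCon and from 395 to 1176 CPM in MaAAD, with 5 of 6 higher and no overlap of the groups. Markers of other tissues that adhere to the aorta were also found. Brown fat markers summed to 318 to 2094 CPM in MaCon and to 136 to 2607 CPM in MaAAD, and none of the 6 was called. Thymocyte markers summed to 114 CPM in MaCon2, to 0.334 to 15.2 CPM in the other controls and to 0.931 to 19.3 CPM in MaAAD. None of the 5 tested thymocyte markers was called.

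Some genes of the elastic fibre, a structure whose cross-linking BAPN inhibits, were higher in the lesion group. Eln, which encodes tropoelastin, had 6935 to 16003 CPM (median 11667) in MaCon and 15253 to 42607 CPM (median 26416) in MaAAD, and its levels rose 2.33-fold (adjusted p = 6.52e-05). MaAAD7 alone lay inside the control range. Of the 20 tested elastic fibre genes, 5 rose and 1 fell, with a median log2 fold change of 0.20. Fbln2, a fibulin that binds elastin, rose 2.22-fold from 203 to 349 CPM (median 251) to 382 to 854 CPM (median 568) with no overlap (adjusted p = 2.99e-07). Ltbp2, a fibrillin-binding protein, rose 2.31-fold (adjusted p = 3.45e-05). Mgp, a matrix protein that holds back calcification of the arterial wall, rose 2.26-fold from 1311 to 3381 CPM (median 1836) to 3039 to 6867 CPM (median 3898) (adjusted p = 4.51e-06). Fbn2, the fibrillin of developing elastic fibres, was close to the detection limit in MaCon (0 to 0.592 CPM (median 0.129)) and reached 0.248 to 7.65 CPM (median 1.80) in MaAAD (adjusted p = 0.000397). Vwce, the member that fell, had 0.333 to 3.66 CPM (median 1.19) in MaCon and 0.184 to 0.524 CPM (median 0.301) in MaAAD.

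Of the lysyl oxidases, the targets of BAPN, Lox, Loxl2 and Loxl4 rose, while Loxl1 and Loxl3 were not DEGs. Lox had 151 to 505 CPM (median 408) in MaCon and 703 to 936 CPM (median 870.1) in MaAAD, so that the lowest lesion library exceeded every control. The difference was 2.12-fold (adjusted p = 0.000991), a log2 fold change of 1.08 that was 1.84 with the log2 ratio of the clock genes Dbp and Arntl in the fit. Loxl4 rose 2.58-fold (adjusted p = 1.48e-07), with 1 lesion library inside the control range. Loxl2 rose 2.04-fold (adjusted p = 2.78e-06), but it lost the fold threshold when MaAAD3, MaAAD5, MaAAD6, MaCon2 or MaCon5 was left out, with log2 fold changes of 0.92 to 1.17 over the single omissions. P4ha3, a subunit of a prolyl hydroxylase that stabilises the collagen helix, went from 0.128 to 0.916 CPM (median 0.727) to 3.10 to 21.2 CPM (median 14.0) without overlap, a 20.8-fold rise (adjusted p = 5.73e-08). These 4 were the DEGs among 26 tested collagen-modifying and cross-linking enzymes (15.4% higher, against 9.18% of all genes). The list had a median log2 fold change of 0.27.

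Among 34 collagen chains 9 rose and none fell, with a median log2 fold change of 0.38. Col1a1 had 2388 to 3498 CPM (median 3342) in MaCon and 4162 to 10563 CPM (median 6634) in MaAAD (2.21-fold, adjusted p = 9.63e-07). Col3a1 went from 3913 to 5842 CPM (median 4647) to 6763 to 12179.7 CPM (median 9639.8), also without overlap, and its log2 fold change of 1.00 ± 0.16 (SE) lay at the threshold and under it without MaAAD3, MaAAD6, MaCon2 or MaCon8 (lowest 0.94). Col5a2, which sets fibril diameter, rose 2.14-fold (adjusted p = 9.16e-09). Folds were larger for Col8a1 and Col12a1. Col8a1, a short-chain collagen of activated smooth muscle and endothelium, rose 17.3-fold from 5.11 to 21.9 CPM (median 11.3) to 63.3 to 383 CPM (median 143) (adjusted p = 4.27e-07), and Col12a1, a fibril-associated chain, rose 4.27-fold from 10.8 to 19.1 CPM (median 12.0) to 31.8 to 87.8 CPM (median 61.4) (adjusted p = 9.57e-07).

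Of 24 tested cartilage and bone genes, 8 rose and 1 fell, or 2 fell without MaAAD2. The median log2 fold change was 0.51, with 10 of the 24 values below 0. Sox9, the transcription factor that starts the cartilage programme, had 2.67 to 5.54 CPM (median 4.11) in MaCon and 6.39 to 13.1 CPM (median 11.1) in MaAAD (2.36-fold, adjusted p = 4.89e-07). Runx2, its counterpart in bone and in hypertrophic cartilage, rose 3.94-fold from 1.07 to 2.61 CPM (median 1.66) to 3.72 to 10.1 CPM (median 6.87) (adjusted p = 3.75e-07). Acan, which encodes the large proteoglycan aggrecan, rose 2.64-fold from 39.0 to 90.6 CPM (median 64.8) to 142 to 206 CPM (median 171) (adjusted p = 1.17e-07). None of the 3 overlapped between the groups. Col10a1, a marker of hypertrophic cartilage, had 0.0654 to 0.601 CPM (median 0.333) in MaCon and 0.310 to 91.5 CPM (median 2.11) in MaAAD, and 2 lesion libraries carried most of it, MaAAD1 at 91.5 CPM and MaAAD4 at 65.9 CPM. Its fold of 67.5-fold became 36.2-fold without MaAAD1 (adjusted p = 0.000166 in the full fit). Col2a1, the collagen of hyaline cartilage, had 0.196 to 2.04 CPM (median 0.408) in MaCon and 1.18 to 55.4 CPM (median 5.83) in MaAAD, with its highest level in MaAAD4, and its log2 fold change of 4.42 became 3.68 without that library. Col11a1, a partner of Col2a1 in fibrils, was more even, at 0.0641 to 0.668 CPM (median 0.266) against 3.41 to 25.0 CPM (median 10.1) (adjusted p = 3.72e-06). Sost, which encodes the Wnt inhibitor sclerostin, fell by 1.58 on the log2 scale, from 1445 to 3056 CPM (median 1914) to 362 to 1105 CPM (median 732) without overlap (adjusted p = 2.1e-05).

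Of 23 matricellular proteins 9 rose and none fell, with a median log2 fold change of 0.55. Fn1, which encodes fibronectin, had 1404 to 3086 CPM (median 1899) in MaCon and 3271 to 6400.2 CPM (median 5833) in MaAAD (2.77-fold, adjusted p = 9.16e-09). Thbs1, thrombospondin-1, a binder and activator of latent TGF-β, rose 9.96-fold from 35.2 to 119.9 CPM (median 76.1) to 482 to 1357 CPM (median 725) (adjusted p = 1.56e-08). Tnc, tenascin-C, rose 3.71-fold (adjusted p = 9.97e-08), and Ccn4, a Wnt-induced secreted protein, rose 7.00-fold (adjusted p = 2.27e-09). The lesion libraries lay above all controls for each of these 4 genes.

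Proteoglycans and the hyaluronan system gave 10 rises and 2 falls among 28 tested genes. Cemip, which starts the breakdown of hyaluronan, rose 28.9-fold from 0 to 0.574 CPM (median 0.198) to 2.48 to 9.40 CPM (median 4.94) (adjusted p = 8.29e-08). Has1, a hyaluronan synthase, rose 5.02-fold (adjusted p = 0.000344) and Has3, another, had 6.46 to 14.8 CPM (median 8.48) in MaCon and 1.75 to 8.00 CPM (median 3.32) in MaAAD (adjusted p = 0.00654). Lum, lumican, a small proteoglycan of collagen fibrils, rose 3.05-fold from 177 to 295 CPM (median 211) to 396 to 1019 CPM (median 684) (adjusted p = 2.16e-07). Ogn, a related small proteoglycan, fell by 1.05 on the log2 scale from 545 to 901 CPM (median 777) to 148 to 534 CPM (median 323) (adjusted p = 0.000306), and it lost the fold threshold without MaAAD3, MaAAD7 or MaCon9.

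**Figure D2:**
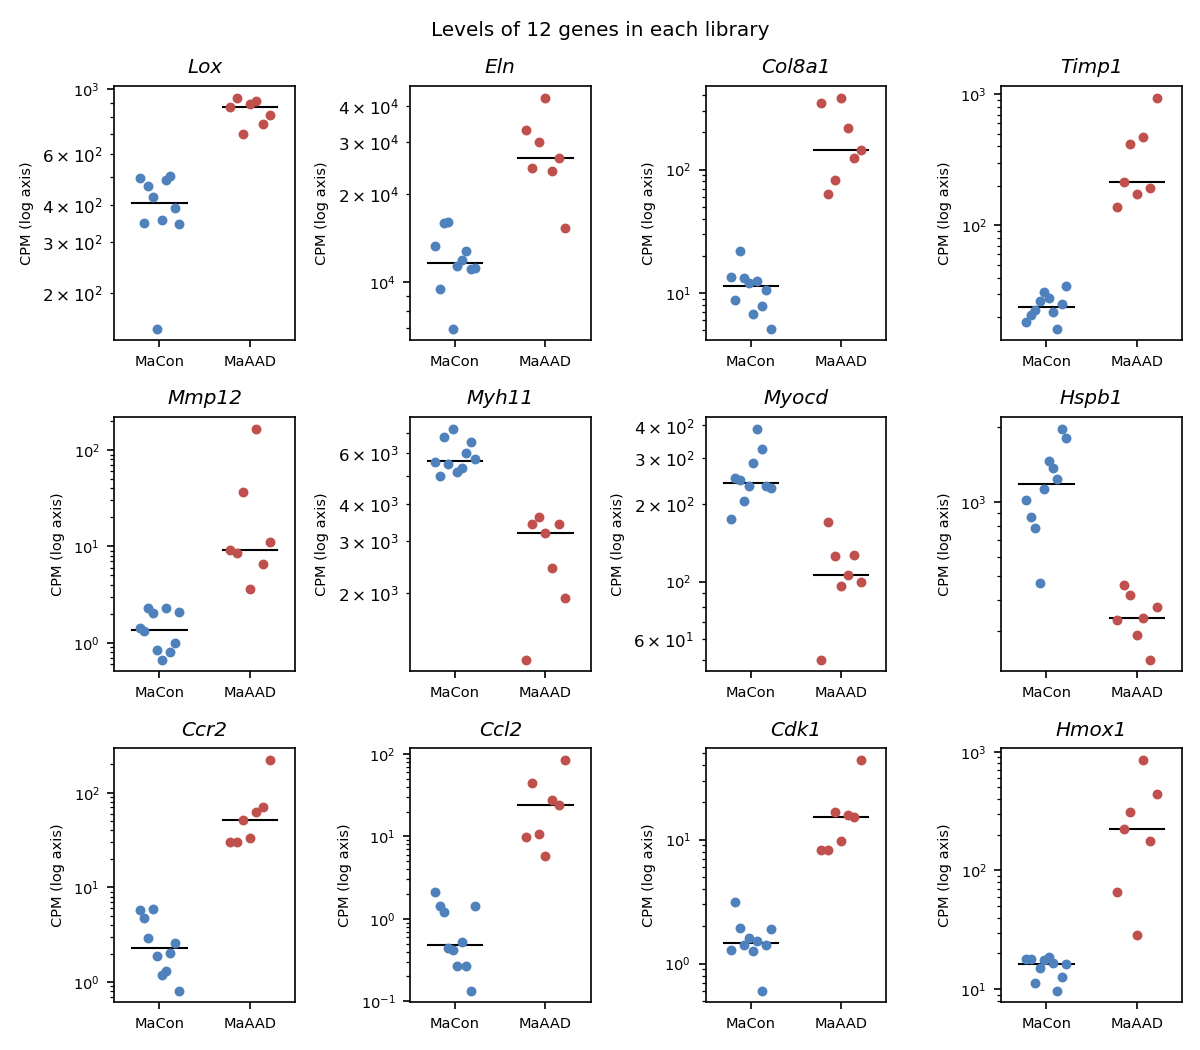
Levels of 12 genes in CPM (log axis, 1 point per library, bar at the median) in the 10 MaCon and the 7 MaAAD libraries. The groups do not overlap for 11 of the genes, and for Eln 1 MaAAD library lies inside the MaCon range. Lox, Eln, Col8a1, Timp1, Mmp12, Ccr2, Ccl2, Cdk1 and Hmox1 are higher in MaAAD, and Myh11, Myocd and Hspb1 are lower.

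Proteases that act on this matrix formed a further group. Of 16 tested matrix metalloproteinases 7 rose and none fell as a DEG, and the median log2 fold change was 1.02. Mmp12, the macrophage elastase, had 0.664 to 2.30 CPM (median 1.36) in MaCon and 3.63 to 167 CPM (median 9.22) in MaAAD, a 23.4-fold rise (adjusted p = 2.68e-07) that became 8.50-fold without MaAAD5, the highest library. Mmp3, stromelysin-1, rose 3.87-fold from 32.0 to 48.8 CPM (median 35.9) to 58.2 to 236 CPM (median 124) (adjusted p = 2.57e-07). Mmp19 rose 2.78-fold (adjusted p = 1.67e-07), and none of its lesion libraries overlapped the controls. Mmp13, a collagenase, stayed low, at 0.0703 to 1.32 CPM (median 0.618) in MaCon and 0.603 to 4.43 CPM (median 1.67) in MaAAD (adjusted p = 0.000565). Mmp2, gelatinase A, rose 2.09-fold from 289 to 417 CPM (median 368) to 471 to 1176 CPM (median 783) (adjusted p = 0.000158), and it lost the fold threshold without MaAAD1 or MaAAD4. Of the 4 tissue inhibitors of these enzymes, Timp1 alone was a DEG, with 16.2 to 34.6 CPM (median 23.7) in MaCon and 139 to 943 CPM (median 216) in MaAAD (14.9-fold, adjusted p = 3.42e-07).

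The promoters of Mmp3, Mmp12 and Mmp13 are shown because these 3 genes, which lie in 1 gene cluster, rose together and because each window holds 1 copy of TGANTCA, the binding sequence of AP-1 factors, close to the start of transcription. The windows are RefSeq sequences of build GRCm38.p6, plus strand, chr9:7445572-7445871 for Mmp3, chr9:7347124-7347423 for Mmp12 and chr9:7272264-7272563 for Mmp13, and capitals mark the motif, which begins 46, 44 and 35 bases before the start.
Mmp3: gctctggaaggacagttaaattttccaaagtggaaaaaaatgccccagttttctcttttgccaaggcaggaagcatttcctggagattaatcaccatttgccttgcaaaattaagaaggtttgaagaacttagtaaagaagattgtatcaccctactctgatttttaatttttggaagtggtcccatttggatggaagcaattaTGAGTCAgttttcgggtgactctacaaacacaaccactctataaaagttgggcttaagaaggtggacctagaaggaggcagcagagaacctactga
Mmp12: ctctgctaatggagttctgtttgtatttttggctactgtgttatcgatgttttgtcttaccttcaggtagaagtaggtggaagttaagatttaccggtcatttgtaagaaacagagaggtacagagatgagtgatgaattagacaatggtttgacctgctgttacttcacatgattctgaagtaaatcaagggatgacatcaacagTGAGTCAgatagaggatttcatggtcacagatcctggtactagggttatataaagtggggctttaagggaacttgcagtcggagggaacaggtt
Mmp13: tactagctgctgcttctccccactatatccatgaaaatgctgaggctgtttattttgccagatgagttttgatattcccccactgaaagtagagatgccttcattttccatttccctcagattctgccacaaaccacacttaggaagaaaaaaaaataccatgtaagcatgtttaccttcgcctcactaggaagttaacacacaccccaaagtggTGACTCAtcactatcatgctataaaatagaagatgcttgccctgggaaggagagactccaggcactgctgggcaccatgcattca
Searched on both strands, TGANTCA was found in 5 of 15 metalloproteinase genes with a promoter window (33.3%) and in 2425 of 27025 genes of all kinds (8.97%). The other two of the 5, Mmp7 and Mmp10, did not pass the filter on low counts and were not tested. A match describes the letters only. Of the AP-1 genes themselves, Fosl1 had 0.281 to 1.46 CPM (median 1.13) in MaCon and 1.21 to 11.0 CPM (median 4.71) in MaAAD (5.63-fold, adjusted p = 2.96e-05) and Junb 24.3 to 72.5 CPM (median 40.2) and 70.8 to 202 CPM (median 117) (2.92-fold, adjusted p = 0.000757). They were 2 of the 5 DEGs that rose among 21 immediate early genes, beside Egr2, Egr3 and Myc. Atf3 fell, from 14.6 to 137 CPM (median 23.1) to 11.6 to 34.1 CPM (median 18.7) (adjusted p = 0.0254), and was not called without MaAAD1, MaAAD4, MaAAD7, MaCon4 or MaCon6, and the median of the 21 was 0.05.

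Single members of other protease families rose. The share of ADAM and ADAMTS genes called higher was 17.4%, against 9.18% of all genes. Of 23 ADAM and ADAMTS genes, with a median log2 fold change of 0.10, 4 rose, among them Adam8, a leukocyte sheddase, at 1.47 to 4.01 CPM (median 3.09) in MaCon and 7.25 to 167 CPM (median 32.4) in MaAAD (18.9-fold, adjusted p = 1.63e-07), which became 12.4-fold without MaAAD5, and Adam12, at 3.09 to 28.0 CPM (median 7.86) and 30.0 to 113 CPM (median 50.7) (5.08-fold, adjusted p = 4.73e-06). Of 14 cathepsins 5 rose. Ctss, cathepsin S, an elastolytic enzyme of antigen-presenting cells, rose 9.85-fold from 10.2 to 24.0 CPM (median 17.8) to 65.3 to 507 CPM (median 166) (adjusted p = 2.97e-08). Ctsk, the collagenolytic cathepsin K, rose 2.30-fold (adjusted p = 1.04e-05), with overlap between the groups.

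Genes of the contractile apparatus fell. Of 27 tested members 11 were DEGs, all lower, against 2.18% of all genes, and 24 passed the adjusted p alone in that direction, against 16.1%. The median log2 fold change of the list was -0.96. Myh11, the smooth muscle myosin heavy chain, had 4996 to 7257 CPM (median 5639) in MaCon and 1179.5 to 3635 CPM (median 3188) in MaAAD, a difference of -1.10 ± 0.21 (SE) on the log2 scale (adjusted p = 4.91e-05) that fell short of the threshold without MaAAD1 (log2 fold change -0.95). Cnn1, calponin, went from 1462 to 3306 CPM (median 2074) to 529.9 to 1367 CPM (median 949) (-1.22 ± 0.20 (SE), adjusted p = 2.71e-06). Myl9, the regulatory myosin light chain, went from 3271 to 8681 CPM (median 4791) to 1525 to 2891 CPM (median 2108) (-1.28 ± 0.19 (SE), adjusted p = 5.72e-07). Pdlim3, a protein of the dense bodies, fell by 1.23 on the log2 scale (adjusted p = 1.81e-06). The last 3 did not overlap between the groups and kept their call under each single omission. Acta2, smooth muscle actin, had 14209 to 35597 CPM (median 22946) in MaCon and 6432 to 17020.0 CPM (median 11758) in MaAAD (-1.02 ± 0.19 (SE), adjusted p = 3.46e-05), and it was under the fold threshold without MaAAD1, MaAAD5, MaCon5, MaCon6, MaCon9 or MaCon10. Without MaAAD1 or MaCon5 the list had 7 DEGs in place of 11, and with the log2 ratio of the clock genes Dbp and Arntl added to the fit it had 19. Without both MaAAD1 and MaAAD7 it had 5.

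Some regulators of smooth muscle state were lower and others higher. Myocd, the coactivator that switches on the contractile genes with serum response factor, went from 175 to 389 CPM (median 240.3) to 49.9 to 169.6 CPM (median 106) without overlap, a change of -1.22 ± 0.21 (SE) (adjusted p = 1.07e-05). Runx1, a factor of the haematopoietic and injury programmes, rose 7.64-fold from 2.39 to 6.13 CPM (median 4.49) to 19.4 to 50.6 CPM (median 28.3) (adjusted p = 2.03e-08). With Runx2 and Sox9 these were the 4 DEGs among 17 smooth muscle transcription factors, whose median was -0.05. Of the 17, 3 were higher (17.6%, against 9.18% of all genes) and 1 was lower (5.88%, against 2.18%). Npr1, the receptor for atrial natriuretic peptide, had 381 to 515 CPM (median 420.3) in MaCon and 143 to 261 CPM (median 225) in MaAAD (-1.04 ± 0.15 (SE), adjusted p = 4.51e-07), and Gucy1b1, a subunit of the nitric oxide receptor, 211 to 307 CPM (median 269.8) and 52.0 to 200.2 CPM (median 143) (-1.03 ± 0.19 (SE), adjusted p = 2.43e-05). Npr1 lost the fold threshold without MaAAD1, MaAAD7, MaCon3, MaCon9 or MaCon10, and Gucy1b1 without MaAAD1, MaAAD5, MaAAD7, MaCon3 or MaCon9. Ednrb, endothelin receptor B, rose 3.71-fold (adjusted p = 5.24e-06). Of 18 vasoactive receptor and cGMP genes 3 rose and 4 fell, with 1 fall left without MaAAD7 and 2 without MaAAD1, MaAAD5, MaCon3 or MaCon9. Of 19 ion channels of arterial muscle 1 fell, or 2 without MaAAD1 or MaAAD2.

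The promoter of Myl9 is shown as that of a member with a clear fall and a CArG box, the site of serum response factor and myocardin. It is RefSeq sequence of build GRCm38.p6, chr2:156775214-156775513, plus strand, and capitals mark the box, which begins 161 bases before the start.
Myl9: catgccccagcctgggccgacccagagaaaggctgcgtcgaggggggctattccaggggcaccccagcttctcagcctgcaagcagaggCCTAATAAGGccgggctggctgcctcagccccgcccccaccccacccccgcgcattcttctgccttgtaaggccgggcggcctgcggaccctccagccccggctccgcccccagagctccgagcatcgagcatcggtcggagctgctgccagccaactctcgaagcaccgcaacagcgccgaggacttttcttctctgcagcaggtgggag
On either strand, 4 of 23 contractile genes with a promoter window held a CArG box (17.4%), namely Myl9, Myl6, Vcl and Ldb3, against 488 of 27025 genes of all kinds (1.81%). Of these 4 Myl9 alone was a DEG, and Myl6 (-0.97), Ldb3 (-0.96) and Vcl (-0.62) had log2 fold changes short of the threshold. No match in other members says only that the letters are not in this window.

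In the growth factor pathways single members moved. Of 34 TGF-β, BMP and activin genes 5 rose (14.7%, against 9.18% of all genes) and 1 fell (2.94%, against 2.18%), and the median was -0.01. Tgfb1 had 35.6 to 87.8 CPM (median 47.6) in MaCon and 70.7 to 129.9 CPM (median 100) in MaAAD (0.85 ± 0.16 (SE), adjusted p = 3.84e-05), short of the fold threshold, and Tgfbr1, its receptor, differed by -0.01 ± 0.15 (SE) (adjusted p = 0.952). Of 28 Wnt ligands and modulators 5 rose (17.9%) and 1 fell (3.57%). Sfrp4 and Frzb, both secreted Wnt antagonists, rose 4.37-fold (adjusted p = 2.52e-07) and 3.96-fold (adjusted p = 3.86e-08). Lgr5, a receptor for R-spondins, went from 0 to 0.398 CPM (median 0.204) to 0.815 to 8.23 CPM (median 2.22) (adjusted p = 3.83e-05). Wif1, a further antagonist, fell by 1.26 on the log2 scale (adjusted p = 2.47e-05), and it was under the fold threshold without both MaAAD1 and MaAAD7.

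The IGF pathway gave 5 rises and no fall among 13 genes. Igf1 had 49.9 to 77.5 CPM (median 62.6) in MaCon and 89.0 to 162 CPM (median 146) in MaAAD (2.19-fold, adjusted p = 2.3e-06). Igfbp2, an IGF-binding protein, rose 4.00-fold from 36.5 to 134 CPM (median 70.1) to 158 to 610.0 CPM (median 272) (adjusted p = 4.47e-06), and Pappa, the protease that frees IGF from its binding proteins, rose 2.64-fold (adjusted p = 0.000733). None of the 15 tested Notch pathway genes was a DEG, although 2 passed the adjusted p alone.

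Of 20 fibroblast genes 2 rose (10%, against 9.18% of all genes), or 4 without MaCon3, MaCon5, MaCon9 or MaCon10. The median log2 fold change was -0.23, and 6 passed the adjusted p alone as higher and 5 as lower. Cthrc1, a secreted protein of activated fibroblasts and injured arteries, was the clearest, at 0.668 to 1.95 CPM (median 1.72) in MaCon and 16.4 to 117 CPM (median 64.6) in MaAAD (42.7-fold, adjusted p = 9.43e-09). Of 24 endothelial genes 3 rose (12.5%, against 9.18% of all genes). Esm1, endocan, and Apln, the ligand apelin, both known from the tips of vascular sprouts, rose 21.2-fold from 0.352 to 1.96 CPM (median 1.07) to 5.30 to 40.9 CPM (median 18.9) (adjusted p = 1.37e-09) and 5.40-fold (adjusted p = 1.69e-05). Adhesion molecules of endothelium and leukocytes gave 10 rises of 16. On the endothelial side Vcam1 rose 4.48-fold from 36.8 to 75.6 CPM (median 54.0) to 124 to 477 CPM (median 203) (adjusted p = 1.33e-09), Sele, E-selectin, rose 5.13-fold (adjusted p = 2.4e-06) and Selp, P-selectin, 2.82-fold (adjusted p = 1.35e-06), each without overlap.

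Genes of macrophages and monocytes were higher in the lesion group. Of 16 macrophage identity genes 15 were higher, with a median log2 fold change of 2.20, and MaAAD7 was the highest library for all 15. Cd68, a lysosomal protein of macrophages, had 4.81 to 14.7 CPM (median 12.1) in MaCon and 27.6 to 145 CPM (median 61.3) in MaAAD (5.98-fold, adjusted p = 7.17e-08). Adgre1, which encodes F4/80, rose 4.44-fold from 6.12 to 22.1 CPM (median 12.7) to 28.2 to 104 CPM (median 52.6) (adjusted p = 1.29e-07), and Msr1, a scavenger receptor, rose 12.9-fold (adjusted p = 1.51e-08). Ccr2, the receptor by which blood monocytes enter tissue, went from 0.807 to 5.86 CPM (median 2.30) to 29.8 to 224 CPM (median 51.8) (24.4-fold, adjusted p = 1.56e-08) and was 15.7-fold higher without MaAAD7. Of 17 genes of monocytes and inflammatory macrophages 15 rose, with a median of 3.07. Of 15 genes of resident perivascular macrophages 5 rose, or 3 without MaAAD7, with a median of 0.29. Mrc1, the mannose receptor of that list, had 17.6 to 52.1 CPM (median 28.9) in MaCon and 81.5 to 273 CPM (median 102) in MaAAD (3.99-fold, adjusted p = 1.05e-07).

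A second macrophage group, that of phagocytosis and lipid handling, was highest in another lesion. Of 22 members 12 rose, and 9 of these 12 were highest in MaAAD5 against 2 in MaAAD7. Trem2, a lipid-sensing receptor, rose 14.1-fold from 1.27 to 3.16 CPM (median 2.28) to 8.19 to 77.5 CPM (median 28.6) (adjusted p = 2.27e-08). Abcg1, a cholesterol exporter, rose 3.51-fold (adjusted p = 1.59e-07) and Lgals3, galectin-3, rose 3.94-fold (adjusted p = 4.46e-07). Gpnmb, a marker of lipid-laden macrophages, had 18.7 to 30.6 CPM (median 24.5) in MaCon and 18.5 to 225 CPM (median 25.9) in MaAAD (2.30-fold, adjusted p = 0.00972), and this rested on MaAAD5, since the log2 fold change was 0.22 without it and the call was lost.

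Of 21 iron and haem genes 8 rose, with a median log2 fold change of 0.51. Hmox1, haem oxygenase-1, which breaks down haem from lysed red cells, had 9.69 to 18.7 CPM (median 16.5) in MaCon and 28.5 to 859 CPM (median 224) in MaAAD, with the peak in MaAAD5 and the lowest lesion library above every control (19.6-fold, adjusted p = 5.75e-07). Ftl1, the ferritin light chain, rose 2.58-fold from 439 to 929 CPM (median 552) to 696 to 2819 CPM (median 1545) (adjusted p = 2.96e-05), and Slc11a1, an iron transporter of phagosomes, rose 5.23-fold (adjusted p = 2.16e-07). Slc40a1, the iron exporter ferroportin, rose 3.31-fold (adjusted p = 0.00148) but was 1.87-fold without MaAAD5 and then not called. The red blood cell markers were at 208 to 1398 CPM in MaCon and at 294 to 2124 CPM in MaAAD, and none of the 6 tested was called.

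Chemokines and their receptors rose broadly. Of 31 chemokine ligands 23 rose and none fell as a DEG, with a median log2 fold change of 2.93, or 2.68 with 3 genes that had at most 3 counts in every control set at their ratio to 3 counts per library. Ccl2 and Ccl7, both ligands of Ccr2, went from 0.133 to 2.11 CPM (median 0.486) to 5.84 to 85.8 CPM (median 24.4) (35.9-fold, adjusted p = 4.95e-07) and from 0 to 1.67 CPM (median 0.618) to 6.15 to 97.7 CPM (median 14.6) (adjusted p = 1.24e-06). Ccl8 rose 19.9-fold from 0.465 to 1.20 CPM (median 0.669) to 3.99 to 26.0 CPM (median 9.22) (adjusted p = 1.21e-07). Ccl6, an abundant myeloid chemokine, went from 12.7 to 35.6 CPM (median 25.6) to 72.6 to 726 CPM (median 137) (8.71-fold, adjusted p = 8.49e-07) and was 5.57-fold higher without MaAAD7. Cxcl1 had 0.465 to 1.61 CPM (median 0.646) in MaCon and 2.11 to 16.6 CPM (median 4.49) in MaAAD (8.48-fold, adjusted p = 2.37e-05). Cxcl2 and Cxcl3, which with Cxcl1 attract neutrophils through Cxcr2, were close to 0 in MaCon, at 0 to 0.471 CPM (median 0.100) and 0 to 0.0637 CPM (median 0), and reached 0.430 to 7.46 CPM (median 1.22) (adjusted p = 4.66e-05) and 0.310 to 19.7 CPM (median 1.80) (adjusted p = 6.12e-06) in MaAAD. Ccl7 and Cxcl2 were 24.7-fold and 7.75-fold higher without MaAAD7, against 39.2-fold and 12.8-fold with it. Of 17 chemokine receptors 10 rose. Cx3cr1, the receptor of patrolling monocytes and tissue macrophages, rose 9.24-fold (adjusted p = 4.14e-07).

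The promoters of Cxcl1, Cxcl2 and Cxcl3 are shown because these neighbours on 1 chromosome rose together and each holds the kappaB consensus, bound by NF-κB, in nearly the same place. They are RefSeq sequences of build GRCm38.p6, plus strand, at chr5:90890995-90891294, chr5:90903649-90903948 and chr5:90785851-90786150. Capitals mark the motif, which matched on both strands in overlapping positions and begins 71, 97 and 73 bases before the start.
Cxcl1: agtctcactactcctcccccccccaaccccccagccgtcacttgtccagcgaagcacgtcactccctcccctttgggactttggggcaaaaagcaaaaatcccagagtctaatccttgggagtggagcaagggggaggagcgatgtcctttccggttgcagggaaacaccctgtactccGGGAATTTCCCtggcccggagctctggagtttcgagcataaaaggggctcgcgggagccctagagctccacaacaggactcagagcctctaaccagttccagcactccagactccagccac
Cxcl2: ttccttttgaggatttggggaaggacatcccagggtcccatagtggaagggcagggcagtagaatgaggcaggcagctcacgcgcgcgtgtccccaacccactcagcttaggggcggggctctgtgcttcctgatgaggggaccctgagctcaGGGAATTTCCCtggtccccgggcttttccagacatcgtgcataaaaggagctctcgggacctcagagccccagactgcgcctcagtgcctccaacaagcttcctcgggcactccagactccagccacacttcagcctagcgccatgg
Cxcl3: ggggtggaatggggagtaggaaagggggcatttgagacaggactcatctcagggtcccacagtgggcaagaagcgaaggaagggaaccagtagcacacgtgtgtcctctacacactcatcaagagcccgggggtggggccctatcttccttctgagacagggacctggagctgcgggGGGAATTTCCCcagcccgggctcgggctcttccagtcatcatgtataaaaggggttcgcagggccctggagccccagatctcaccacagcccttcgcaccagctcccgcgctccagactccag
The run in capitals is the same in all 3 windows. The consensus was found in 7 of 27 chemokine ligands with a window (25.9%), the others being Ccl9, Ccl20, Ccl27a and Cxcl10, against 1388 of 27025 genes of all kinds (5.14%). Of these others Ccl20 was not tested, and Ccl27a was lower in MaAAD, at 7.30 to 15.9 CPM (median 8.88) against 4.36 to 7.23 CPM (median 5.27) (adjusted p = 9.96e-06), short of the fold threshold.

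Cytokines and their receptors gave 26 rises of 39 tested genes and no fall as a DEG, with a median log2 fold change of 1.62. Tnf had 0 to 0.281 CPM (median 0.228) in MaCon and 0.369 to 3.50 CPM (median 1.16) in MaAAD (7.40-fold, adjusted p = 3.34e-06). Nlrp3, the sensor of an inflammasome, rose 7.02-fold (adjusted p = 7.26e-07). Il1rn, the antagonist of interleukin-1 receptors, went from 0 to 1.18 CPM (median 0.237) to 1.04 to 20.2 CPM (median 5.77) (21.2-fold, adjusted p = 7.83e-06). Tnfrsf11b, osteoprotegerin, a decoy receptor made by smooth muscle, rose evenly, at 13.2 to 29.8 CPM (median 17.8) in MaCon and 86.0 to 174 CPM (median 109) in MaAAD (6.19-fold, adjusted p = 1.45e-08). Its ligand Tnfsf11 was detected in few controls, at 0 to 0.197 CPM (median 0), and reached 0.184 to 1.63 CPM (median 0.434) in MaAAD (adjusted p = 0.000332). Outside that list, 2 of the 4 genes with the lowest p that rose were Ttc9, at 1.87 to 4.61 CPM (median 3.69) in MaCon and 13.9 to 28.4 CPM (median 18.6) in MaAAD (5.74-fold, adjusted p = 1.81e-11), and the rhomboid gene Rhbdl2, at 0 to 0.535 CPM (median 0.275) and 2.05 to 4.42 CPM (median 3.41) (11.3-fold, adjusted p = 1.81e-11).

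All 22 tested Fc receptor and C-type lectin genes rose, with a median log2 fold change of 3.23, and 20 of the 22 were highest in MaAAD7. Clec4n, dectin-2, rose 37.2-fold from 0.398 to 1.75 CPM (median 0.904) to 6.39 to 87.2 CPM (median 19.1) (adjusted p = 7.13e-08). Clec4d rose 57.8-fold (adjusted p = 4.81e-07), and its partner Clec4e, Mincle, which senses dead cells, was at 0 to 0.0666 CPM (median 0.0320) in MaCon and 0.983 to 9.03 CPM (median 2.60) in MaAAD (adjusted p = 5.09e-07). Mefv, which encodes pyrin, went from 0 to 0.0668 CPM (median 0) to 0.860 to 12.8 CPM (median 2.36) (adjusted p = 1.05e-07). Cd300lf was at 0 to 0.141 CPM (median 0.0661) and 0.964 to 38.9 CPM (median 5.77) (adjusted p = 3.97e-07), and Sirpb1c at 0 to 0.269 CPM (median 0.0327) and 0.676 to 39.1 CPM (median 4.78) (adjusted p = 2.91e-07). Siglecf, a marker of eosinophils, had 0 to 0.0637 CPM (median 0) in MaCon and 0 to 7.98 CPM (median 0.186) in MaAAD (adjusted p = 2.59e-05), with 7.98 CPM in MaAAD7, 4.25 CPM in MaAAD3 and under 1 CPM in the other 5. Of 15 Toll-like receptor genes 9 rose, Tlr13 furthest, from 0.471 to 2.29 CPM (median 1.36) to 9.10 to 56.4 CPM (median 14.6) (14.5-fold, adjusted p = 1.89e-09). No fold is given for Clec4e, Mefv, Cd300lf or Siglecf, or for others of the 64 risen genes with at most 3 counts in every control, since a ratio to so few counts is not informative.

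Neutrophil genes gave 8 rises and 1 fall among 13 tested, and all 8 were highest in MaAAD7. Trem1, an amplifying receptor of neutrophils and monocytes, had 0 to 0.134 CPM (median 0) in MaCon and 0.542 to 14.6 CPM (median 3.91) in MaAAD (adjusted p = 1.53e-06). Csf3r, the receptor for granulocyte colony-stimulating factor, rose 13.9-fold from 1.33 to 2.94 CPM (median 1.85) to 5.47 to 100.3 CPM (median 13.3) (adjusted p = 2.08e-06) and was 7.24-fold higher without MaAAD7. Il1r2, a decoy receptor for interleukin-1, rose 91.7-fold (adjusted p = 5.9e-06) and was 31.1-fold higher without it. Lcn2, lipocalin-2, rose 23.2-fold from 0.267 to 1.86 CPM (median 1.27) to 5.04 to 65.7 CPM (median 21.1) (adjusted p = 5.7e-07). S100a9, an alarmin of neutrophil cytosol, had 0.0668 to 2.94 CPM (median 0.492) in MaCon and 0.838 to 53.2 CPM (median 3.10) in MaAAD (adjusted p = 0.00234), and its call was lost without MaAAD7 (log2 fold change 2.23 against 3.88) and its log2 fold change was 4.50 without MaCon3. Ngp, a granule gene of immature neutrophils, was the member that fell, from 0 to 3.87 CPM (median 0.536) to 0 to 0.241 CPM (median 0.0599) (adjusted p = 0.00202), with a log2 fold change of -3.72 that was -4.39 without MaAAD1.

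Genes of antigen presentation were higher. All 10 MHC class II genes rose, with a median of 1.94 and the peak in MaAAD7 for all 10. H2-Aa had 38.3 to 101 CPM (median 53.8) in MaCon and 127 to 384 CPM (median 192) in MaAAD (3.84-fold, adjusted p = 4.84e-06), and Ciita, the master coactivator of the class, rose 4.84-fold (adjusted p = 1.16e-06). Of 12 dendritic cell genes 10 rose, and 1, Siglech, fell at the fold threshold and was not called without MaAAD1, MaAAD3, MaAAD5, MaAAD7, MaCon1, MaCon2, MaCon3, MaCon4, MaCon9 or MaCon10. Flt3, the growth factor receptor of dendritic cells, went from 0 to 0.654 CPM (median 0.102) to 1.11 to 6.29 CPM (median 2.53) (14.5-fold, adjusted p = 3.08e-07), and Cd209a rose 7.17-fold (adjusted p = 3.34e-06). Of lymphocyte genes 2 of 16 rose for T and NK cells, or 4 without MaCon2, and 4 of 9 for B and plasma cells, or 2 without MaAAD1, MaAAD4, MaCon5, MaCon7 or MaCon8. The T and NK rises were 12.5% of that list, against 9.18% of all genes. The T and NK list had a median log2 fold change of -0.34, with 12 of 16 values below 0. MaCon2 also had the most thymocyte markers of the controls, at 114 CPM against 15.2 CPM in the next. The part of thymus tissue in the T and NK values was not tested. Klrd1, a receptor of NK cells and 1 of the 2 that rose, had 0 to 0.262 CPM (median 0.0665) in MaCon and 0.419 to 3.38 CPM (median 0.904) in MaAAD (adjusted p = 3.78e-05). Of 8 mast cell genes Hdc, the histamine-forming enzyme, alone rose (3.21-fold, adjusted p = 0.00124), and a second was called without MaAAD3 to MaAAD6, MaCon1, MaCon7 or MaCon10 in turn.

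Of 26 interferon-stimulated genes 13 rose, with a median of 1.04, and 6 rose without MaAAD1 and MaAAD7. Oas1a rose 5.05-fold from 1.40 to 4.21 CPM (median 2.72) to 4.85 to 35.8 CPM (median 8.21) (adjusted p = 3.45e-06) and Isg15 2.65-fold (adjusted p = 0.00288), which was not called without both libraries. Of 20 complement genes 10 rose and 1 fell. C3ar1, the receptor for C3a, rose 8.27-fold from 2.41 to 8.39 CPM (median 6.03) to 22.2 to 116 CPM (median 43.4) (adjusted p = 8.29e-08), and C4b rose 2.86-fold (adjusted p = 7.63e-06). C7, part of the membrane attack complex, had 157 to 233 CPM (median 189) in MaCon and 35.3 to 156 CPM (median 87.8) in MaAAD (-1.13 ± 0.28 (SE), adjusted p = 0.00114) and fell short of the fold threshold without MaAAD7, at a log2 fold change of -0.99. Of 18 coagulation and fibrinolysis genes 8 rose, and 7 of the 8 were highest in MaAAD7. Of the 6 platelet markers Pf4 (7.42 to 17.8 CPM (median 13.9) against 20.8 to 254 CPM (median 40.1), adjusted p = 0.000169) and Ppbp (0.263 to 3.25 CPM (median 1.14) against 2.03 to 128 CPM (median 4.03), adjusted p = 7.37e-05) were called higher, and the markers summed to 22.3 to 45.1 CPM in MaCon and 36.0 to 400 CPM in MaAAD, the last in MaAAD7. Without MaAAD7 their log2 fold changes of 2.30 and 4.08 were 1.39 and 2.11. The part of platelets in the coagulation genes was not tested. Plau, urokinase, rose 2.82-fold from 6.62 to 14.9 CPM (median 10.8) to 26.3 to 35.0 CPM (median 30.0) without overlap (adjusted p = 1.03e-06). F10, coagulation factor X, was at 0.0637 to 0.320 CPM (median 0.0688) in MaCon and 0.615 to 8.63 CPM (median 1.49) in MaAAD (16.2-fold, adjusted p = 5.36e-05), and at 9.84-fold without MaAAD7.

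Of 14 genes of arginine and nitric oxide metabolism 6 rose. Slc7a2, an arginine transporter, rose 2.41-fold from 21.2 to 33.2 CPM (median 26.2) to 41.7 to 90.6 CPM (median 66.3) (adjusted p = 4.74e-05), and Ddah1, which degrades the nitric oxide synthase inhibitor dimethylarginine, rose 10.7-fold from 0.562 to 2.36 CPM (median 1.36) to 7.75 to 24.6 CPM (median 14.8) (adjusted p = 7.34e-06). Of 22 prostaglandin and leukotriene enzymes 6 rose and 2 fell, or 1 without MaAAD1, MaCon3 or MaCon10. Ptgs2, cyclooxygenase-2, had 3.03 to 16.5 CPM (median 7.20) in MaCon and 8.92 to 206 CPM (median 43.4) in MaAAD (8.38-fold, adjusted p = 9.19e-06), and 5.51-fold more without MaAAD7. Hpgds, a prostaglandin D synthase, rose 5.41-fold from 0.535 to 2.68 CPM (median 1.69) to 5.27 to 12.1 CPM (median 9.08) (adjusted p = 9.43e-09). Of 21 NADPH oxidase and antioxidant genes 6 rose, including Cybb, the catalytic subunit of the phagocyte oxidase (3.54 to 10.8 CPM (median 4.77) against 15.7 to 55.0 CPM (median 28.4), 5.03-fold, adjusted p = 4.95e-08). Of 18 genes of the aryl hydrocarbon receptor and of tryptophan enzymes 4 rose. Ahr, the receptor for indoles and other ligands, went from 2.08 to 6.22 CPM (median 3.26) to 11.7 to 26.7 CPM (median 14.6) without overlap (4.77-fold, adjusted p = 4.7e-07), and Kmo, kynurenine monooxygenase, rose 4.03-fold (adjusted p = 1.89e-05). Of 6 metallothionein and zinc transporter genes Mt2 alone rose (35.8 to 234 CPM (median 78.5) against 77.4 to 706 CPM (median 365), 3.56-fold, adjusted p = 0.00596), with a second call without MaAAD4 or MaCon5.

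Genes of cell division rose together. Of 42 tested members 37 were DEGs, against 9.18% of all genes, and all 42 passed the adjusted p in that direction. The median log2 fold change was 2.45, and 36 of the 37 were highest in MaAAD7. Cdk1, the kinase of mitotic entry, had 0.601 to 3.14 CPM (median 1.46) in MaCon and 8.26 to 44.3 CPM (median 15.2) in MaAAD (10.5-fold, adjusted p = 1.91e-07). Prc1, a protein of the dividing spindle, rose 9.01-fold from 1.79 to 5.34 CPM (median 2.70) to 11.6 to 49.7 CPM (median 25.6) (adjusted p = 1.8e-08), and Ccna2, cyclin A2, rose 8.11-fold (adjusted p = 2.85e-07). None of these 3 overlapped between the groups. Mki67, the proliferation marker Ki-67, went from 1.54 to 17.3 CPM (median 3.23) to 16.8 to 61.5 CPM (median 35.7) (6.81-fold, adjusted p = 1.58e-06), with 1 control, MaCon2, above 2 lesion libraries. Of 13 p53 and senescence genes 3 rose and 1 fell. Plk2 rose 3.86-fold from 4.61 to 9.03 CPM (median 6.78) to 17.8 to 38.9 CPM (median 23.2) (adjusted p = 1.37e-09). Cdkn1a, the cell cycle inhibitor p21, had 63.3 to 237 CPM (median 143) in MaCon and 50.9 to 112 CPM (median 71.2) in MaAAD (-1.05 ± 0.38 (SE), adjusted p = 0.0259), and it lost its call without MaAAD3, MaAAD4, MaAAD6, MaCon6, MaCon7 or MaCon8. With the log2 ratio of the clock genes Dbp and Arntl added to the fit its log2 fold change was -0.02, and it was not called.

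Calls in energy metabolism were few or near the share of all genes. Of 35 genes of glycolysis and the hypoxia response 2 rose (5.71%, against 9.18% of all genes), or 1 without MaAAD5. In the same list 1 fell (2.86%, against 2.18%). Pfkp, the platelet-type phosphofructokinase, had 197 to 283 CPM (median 230.2) in MaCon and 90.7 to 149 CPM (median 112) in MaAAD without overlap (-1.01 ± 0.10 (SE), adjusted p = 6.61e-10), which put it among the 4 genes with the lowest p that fell. Its size lay at the fold threshold and under it without MaAAD1, MaAAD3, MaAAD7, MaCon3, MaCon5, MaCon6, MaCon9 or MaCon10. The other 3 were Pkdcc, a secreted kinase, from 142 to 321 CPM (median 216) to 54.5 to 79.7 CPM (median 72.2) (-1.73 ± 0.19 (SE), adjusted p = 2.28e-09), Dnajb2, a co-chaperone, from 91.5 to 161 CPM (median 124) to 48.1 to 64.9 CPM (median 61.0) (-1.09 ± 0.11 (SE), adjusted p = 1.33e-09), and Mybpc2, a myosin-binding protein, from 6.09 to 11.4 CPM (median 8.93) to 1.75 to 3.55 CPM (median 2.39) (-1.80 ± 0.21 (SE), adjusted p = 9.43e-09). No DEG was found among 60 subunits of oxidative phosphorylation, where 5 passed the adjusted p alone as lower and the median was -0.39. The mean level of these subunits was above every control in MaAAD1 and under the MaCon mean in the other 6, and MaAAD1 was also the library with the most brown fat markers. There was no DEG among 24 genes of the unfolded protein response, 32 autophagy genes and 13 brown fat genes either, and 1 among 16 white fat genes, Nnat, which was not called without MaAAD2, MaAAD3, MaAAD5, MaAAD7, MaCon6, MaCon9 or MaCon10, with 3 white fat genes lower without MaAAD1. Of the autophagy genes 12 passed the adjusted p alone as lower and 2 as higher.

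**Figure D3:**
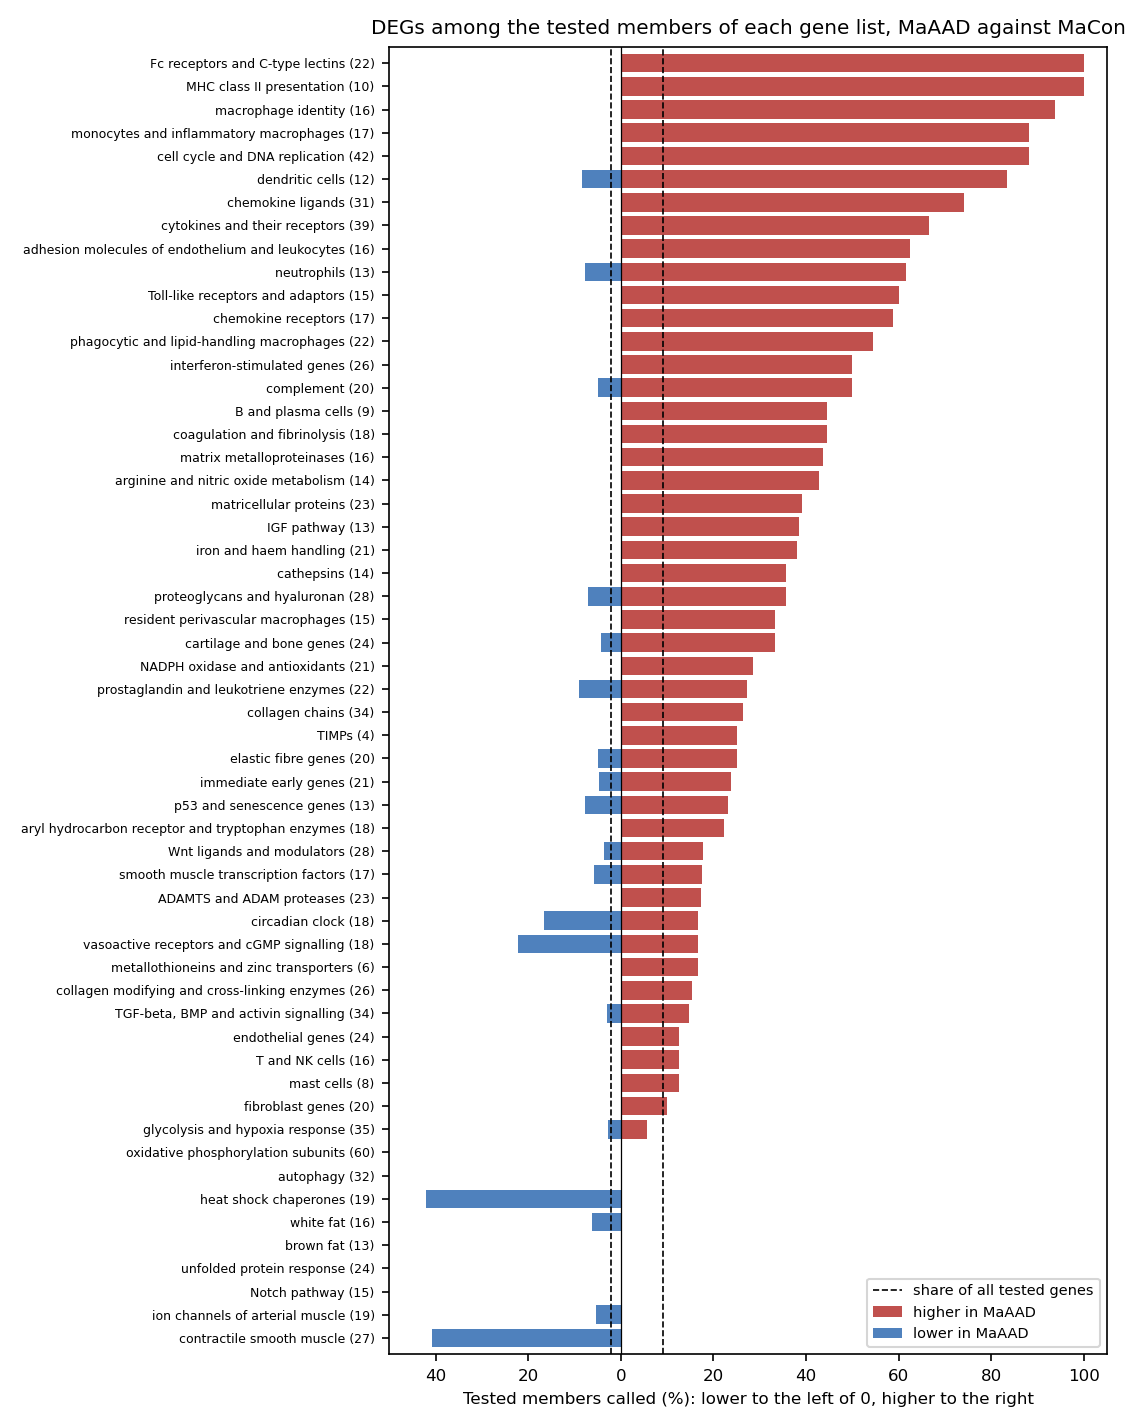
Share of tested members (horizontal axis, %) that were DEGs in each gene list (rows, number tested in brackets), with red bars for members higher in MaAAD and blue bars for members lower. Dashed lines mark the shares of all tested genes, 9.18% higher and 2.18% lower. All 22 Fc receptor and C-type lectin genes and all 10 MHC class II genes were higher, and the blue bars are longest for the heat shock (8 of 19) and contractile (11 of 27) lists.

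Heat shock chaperones were lower in MaAAD. Of 19 members 8 fell and none rose, with a median log2 fold change of -0.81, and 16 passed the adjusted p alone as lower. With the log2 ratio of the clock genes Dbp and Arntl added to the fit 5 fell. Hspb1, the small chaperone HSP27 of muscle, had 470.3 to 1977 CPM (median 1184) in MaCon and 230.4 to 462 CPM (median 342) in MaAAD without overlap (-1.79 ± 0.28 (SE), adjusted p = 1.41e-06). Hsph1, a partner of HSP70, went from 62.1 to 507 CPM (median 272) to 45.1 to 96.5 CPM (median 60.9) (-2.12 ± 0.35 (SE), adjusted p = 5.84e-06), and its log2 fold change was -1.10 with that ratio in the fit. Hspa8, the constitutive HSP70, went from 1165 to 3089 CPM (median 2522) to 733 to 1372 CPM (median 1164) (-1.18 ± 0.23 (SE), adjusted p = 8.78e-05). The controls were widely spread for Hspa1b, an inducible HSP70 (68.3 to 1548 CPM (median 341)), while the lesion libraries lay at 19.2 to 68.2 CPM (median 47.4) (adjusted p = 3e-06). Its log2 fold change of -3.60 was -1.999 with the ratio.

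The libraries also differed in genes of the circadian clock, whose levels vary over the day. The labels give no hour of tissue collection. The study's methods place faecal sampling on 1 day, in the morning and just before the mice were killed, and state no hour for the aortas. Arntl encodes the clock activator BMAL1, and Dbp is an output gene that peaks at another time of day. Arntl lay at 2.40 to 8.04 CPM (median 4.95) in MaAAD, at 1.62 CPM in MaCon5 and at 27.2 to 63.1 CPM in the other 9 controls (adjusted p = 0.00236). Npas2, a partner of BMAL1, had 3.87 to 98.4 CPM (median 60.2) in MaCon and 4.52 to 9.68 CPM (median 6.17) in MaAAD (adjusted p = 0.000208), again with MaCon5 lowest. Dbp was at 112 to 294 CPM (median 241) in MaAAD, at 472 CPM in MaCon5 and at 4.21 to 132.7 CPM in the other 9, and it was not called (adjusted p = 0.173). Of 18 tested clock genes 3 rose, among them Bhlhe40 (3.42-fold, adjusted p = 9.17e-09), and 3 fell. Without MaCon5 the clock list had 7 rises. Per3 (1.34, adjusted p = 0.0454) was not called without MaAAD3, MaAAD4, MaAAD5, MaAAD6, MaCon1, MaCon2, MaCon3, MaCon4, MaCon6, MaCon7, MaCon8 or MaCon10, and its log2 fold change was 1.98 without MaCon5. The 4 MaNonAD libraries had 2.04 to 11.4 CPM of Arntl and 231 to 456 CPM of Dbp. Low Arntl was thus present in BAPN-treated males with and without a lesion. Between MaAAD and MaCon the state of the clock cannot be told apart from BAPN or the lesion for genes of this kind. MaCon5 was the single control with less Arntl than the lesion libraries. With the log2 ratio of Dbp to Arntl added to the fit, 1543 of the 1639 DEGs were called in the same direction. Of the 172 called genes named here, 16 were then no longer called. The adjusted p was no longer passed by Arntl, Nfil3, Per3, Bhlhe41, Cdkn1a, Dnajb1, Nnat, Atf3 and Krt14. The other 7 passed it and fell short of the fold alone. Of these the log2 fold change went from -1.18 to -0.63 for Hspa8, from -1.15 to -0.60 for Hsp90aa1 and from 1.31 to 0.85 for Htra4. It moved less for Rasl11b (-1.16 to -0.94), Dnajb2 (-1.09 to -0.94), Ogn (-1.05 to -0.99) and Pfkp (-1.01 to -0.99). The fold of 42 rises was larger by over 1.5 times with the ratio, that of 2 rises was smaller by as much, and that of 9 falls was smaller. Arntl itself enters that ratio. Dnajb1 was also not called without MaCon6 or MaCon7.

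The promoter of Arntl is shown as that of a clock gene with a large fall. It holds 1 copy of TAGGTCA, a form of the element bound by ROR and REV-ERB receptors, shortly after the start of transcription (RefSeq, build GRCm38.p6, chr7:113207261-113207560, plus strand, motif in capitals).
Arntl: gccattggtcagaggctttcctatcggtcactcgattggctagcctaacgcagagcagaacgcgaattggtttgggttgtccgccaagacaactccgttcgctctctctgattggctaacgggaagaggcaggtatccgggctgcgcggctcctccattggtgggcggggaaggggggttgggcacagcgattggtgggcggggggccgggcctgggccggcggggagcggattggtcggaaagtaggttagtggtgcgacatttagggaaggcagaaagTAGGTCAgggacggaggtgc
Arntl and Nfil3 were the 2 of 15 clock genes with a window that held it (13.3%), against 802 of 27025 genes of all kinds (2.97%).

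**Figure D4:**
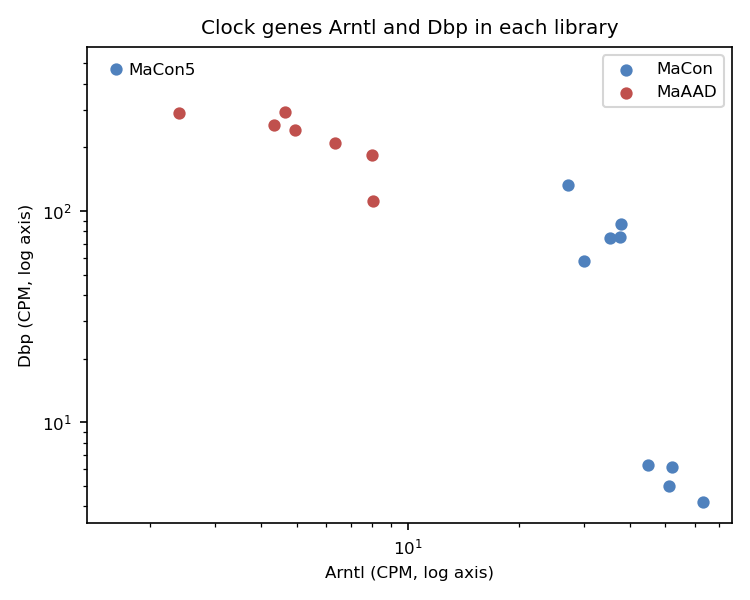
Arntl (horizontal axis) against Dbp (vertical axis) in CPM on log axes, 1 point per library. The 7 MaAAD libraries lie together at low Arntl and high Dbp, 9 MaCon libraries lie at Arntl of 27.2 CPM or more, and MaCon5 is the control at low Arntl.

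The remaining large falls included 2 genes of airway epithelium. Scgb1a1 and Bpifa1, secreted proteins of airway epithelium, had 0.0658 to 19.6 CPM (median 1.93) and 0.0658 to 19.4 CPM (median 2.88) in MaCon and 0 to 2.95 CPM (median 0.186) (adjusted p = 0.0137) and 0.120 to 1.57 CPM (median 0.310) (adjusted p = 0.00258) in MaAAD. Tmem82 went from 8.51 to 56.4 CPM (median 34.6) to 3.15 to 8.38 CPM (median 7.01) (adjusted p = 1.79e-05) and Adgrb1, an adhesion receptor, from 1.34 to 4.04 CPM (median 3.06) to 0.117 to 0.993 CPM (median 0.582) (adjusted p = 5.52e-06), both without overlap. The log2 fold change of Tmem82, -2.45, was -1.60 with the ratio of Dbp to Arntl in the fit. Cpne5, a copine, had 0.589 to 1.66 CPM (median 1.04) and 0 to 0.310 CPM (median 0.233) (adjusted p = 6.5e-07), and Mrgprg 0.797 to 12.0 CPM (median 4.97) and 0 to 2.30 CPM (median 0.930) (adjusted p = 0.00625). Scgb1a1 was not called without MaCon2, the control with the most of it, and its log2 fold change of -2.67 was -4.13 without MaAAD1. Of the 5 tested epithelial markers Scgb1a1 was called lower, Krt14 (0.134 to 1.64 CPM (median 0.434) against 0.233 to 7.11 CPM (median 1.75), adjusted p = 0.0335, not called without MaAAD2, MaAAD7, MaCon1, MaCon7, MaCon8, MaCon9 or MaCon10) and Cdh1 (0 to 1.31 CPM (median 0.0686) against 0.553 to 5.48 CPM (median 2.22), adjusted p = 0.000225, log2 fold change 3.34, or 4.53 without MaCon2) were called higher, and the markers summed to 20.8 to 48.5 CPM in MaCon and 21.7 to 53.4 CPM in MaAAD. The log2 fold change of Bpifa1 went from -3.40 to -4.07 without MaAAD1.

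The same lesion contrast in females, FeAAD (n = 9) against FeCon (n = 10), allowed a test of whether the male difference was of the same size. The interaction term was called for 75 genes (0.520% of those tested), 50 with a larger log2 fold change in males and 25 with a smaller one, and 24 of the 75 were DEGs of the male comparison. Prmt2, an arginine methyltransferase, had 27.1 to 42.8 CPM (median 34.4) in MaCon and 18.5 to 26.1 CPM (median 20.1) in MaAAD, but from 12.1 to 28.3 CPM (median 14.5) in FeCon and from 17.1 to 32.6 CPM (median 26.7) in FeAAD. The difference of the log2 fold changes, male minus female, was -1.32 ± 0.19 (SE) (adjusted p = 0.000248). Maff, a small transcription factor of the bZIP class, had 19.8 to 39.3 CPM (median 30.7) in MaCon and 24.2 to 36.0 CPM (median 31.2) in MaAAD, and from 24.9 to 149 CPM (median 96.7) in FeCon and from 21.6 to 40.0 CPM (median 31.3) in FeAAD, a difference of 1.59 ± 0.26 (SE) (adjusted p = 0.00192). Rasl11b, a Ras-like gene, went from 63.4 to 160.2 CPM (median 129) to 40.2 to 63.8 CPM (median 54.8) in males (-1.16) and had a log2 fold change of 0.09 in females, a difference of -1.25 ± 0.22 (SE) (adjusted p = 0.00241). Htra4, a serine protease, rose in males from 4.08 to 15.7 CPM (median 7.96) to 13.8 to 27.4 CPM (median 18.9) (1.31) and had -0.54 in females, a difference of 1.85 ± 0.33 (SE) (adjusted p = 0.00241). Arntl spread widely in both female groups, from 2.03 to 41.9 CPM (median 25.1) in FeCon and from 2.35 to 39.6 CPM (median 6.90) in FeAAD. With the clock ratio in the fit 26 genes were called, 21 of them among the 75.

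**Figure D5:**
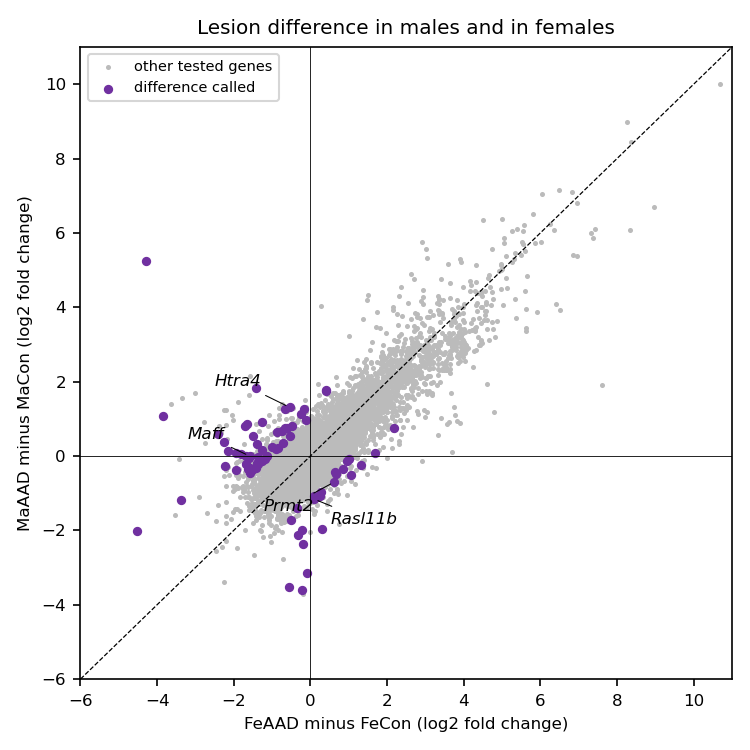
Log2 fold change of the lesion contrast in females (horizontal axis) and in males (vertical axis), 1 point per tested gene, with the 75 genes whose difference was called in purple and a dashed line of equal values. The 4 named genes have the lowest p. The purple point at the upper left is Vpreb2, a gene with 0 counts in all 10 MaCon libraries and in 4 of 7 MaAAD libraries, which was picked out after its values were seen.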

How the data were processed

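Strand-specific RNA-seq was made from mouse thoracic aorta. The deposited table holds estimated counts per gene, which the authors made with RSEM 1.3.1 and Bowtie2 on GRCm39, per the submitters' processing notes; 4.99% of values were not whole, and all were rounded. Of 18782 genes, 14431 passed edgeR's filterByExpr. The members and gene lists were chosen with earlier results of these data known. Libraries were grouped by their labels. Counts were scaled by TMM and fitted with edgeR 4.0.16 (R 4.3.3; quasi-likelihood, robust) over 48 libraries in 6 groups, and the male and sex contrasts were tested with Benjamini-Hochberg adjustment. DESeq2 1.42.0, the study's tool, other filters, a replicate block and single omissions were alternatives. On simulated counts for MaAAD against MaCon (14362 genes) 87% of changes of 1 and 99% of changes of 2 on the log2 scale passed the adjusted p, with 9 false calls. The fold threshold was not applied there, and the changed genes had a mean above 1 CPM. These shares are thus not the recovery of DEGs as defined here.

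Named genes were the 10 rises and 10 falls with the largest fold among DEGs that averaged at least 10 counts, the 6 in each direction with the largest difference of mean CPM, the 4 of lowest p in each direction, the 4 of lowest p for the sex difference, and members of 56 lists and of the marker lists. Figures used Python 3.11.15 and matplotlib 3.10.9. Depth limits the precision of genes with few counts. Some genes that this rule names are not reported here.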

Additional observations from a re-analysis of the deposited data

Results flagged for a closer look

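Libraries that stood apart from the rest of their group were sought with Dixon's test at the 95% level, on log2(CPM + 1) of 181 named genes and on the library totals in MaCon and in MaAAD. Chance marks about 1 in 20 such groups, and 30 of 364 were marked. MaCon5 was the lowest control for Arntl (1.62 CPM), Npas2 (3.87 CPM), Hspa8 (1165 CPM), Lox (151 CPM), Tnc (34.6 CPM) and Tmem82 (8.51 CPM). It was the highest control for Per3 (173 CPM), Has3 (14.8 CPM) and Mgp (3381 CPM). MaAAD7 was apart at the top for Ccr2 (224 CPM), Cdk1 (44.3 CPM), Pf4 (254 CPM) and Klrd1 (3.38 CPM), and MaAAD5 for Gpnmb (225 CPM) and Slc40a1 (85.5 CPM). MaAAD1 was apart at the top for Bpifa1 (1.57 CPM) and Scgb1a1 (2.95 CPM) and at the bottom for Loxl4 (12.3 CPM). MaAAD2 had the lowest P4ha3 (3.10 CPM) and MaAAD4 the lowest Bhlhe40 (96.5 CPM) of their group. Among the controls MaCon8 was low for Cd68 (4.81 CPM) and Ctss (10.2 CPM). MaCon4 was high for Cemip (0.574 CPM), Cxcl3 (0.0637 CPM) and Siglecf (0.0637 CPM), and MaCon3 for S100a9 (2.94 CPM) and Trem1 (0.134 CPM). Every other control was at 0 for Cxcl3 and Siglecf, where the test marks a single library above 0 whatever its level. MaCon2 was high for Cdh1 (1.31 CPM), MaCon7 for Tnfsf11 (0.197 CPM) and MaCon6 for Nnat (22.7 CPM).

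The lesion contrast differed between males and females for 13 of the genes named here, by edgeR's test of the interaction with Benjamini-Hochberg adjustment. Values are the log2 fold change in males minus that in females. The male value was higher for Mt2 (3.25), Vwce (2.51), Htra4 (1.85), Maff (1.59) and Bhlhe40 (1.38). It was lower for Hspa1b (-3.39), Npas2 (-3.07), Cpne5 (-2.18), Hsph1 (-1.79), Prmt2 (-1.32), Rasl11b (-1.25), Dnajb1 (-1.23) and Pkdcc (-1.21). With the clock ratio in the fit 26 genes of all those tested had a called difference, 21 of them among the 75.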

How the results depend on the processing

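The count of 1639 DEGs stayed within 1.5 times under each alternative but one, at 1800 with DESeq2, 1640 with its size factors, 1878 with no filter on low counts, 1640 without robust estimation and 1408 from the 17 libraries alone. Without the fold threshold 5050 genes passed the adjusted p, 2721 higher and 2329 lower, and 194 passed it for the sex difference. Over the single omissions there were 1458 to 1761 DEGs, 1199 to 1375 of them higher and 259 to 417 lower, and 53 to 118 genes with a sex difference, the last without MaCon5. The sex difference was called for 129 genes with DESeq2. Both remaining alternatives were chosen after seeing the data. With the clock ratio there were 1902 DEGs and 26 genes with a sex difference, and Per3 turned to a log2 fold change of -0.0065. Without MaAAD1 and MaAAD7 there were 1516 and 117. The labels do not say that replicate numbers pair the mice. The correlation of same-numbered MaCon and MaAAD libraries ran from -0.29 to 0.28. Libraries of different numbers were not compared, so these values cannot settle whether the numbers stand for a shared order or batch. With a replicate block 1624 genes were DEGs and 63 had a sex difference. Of 172 called genes named here, 128 were tested under all alternatives and kept their call, 12 kept it in each alternative that tested them, and 32 lost it in at least 1. One library changed 20 list counts by more than 1.5 times, 15 of them counts of 1 or 2 members. The cause of these changes was not tested.

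Each group held few mice, and p-values measure the spread between these mice only. Low counts limit the genes close to 0 in MaCon. Whole tissue, a pooled lesion label and collection hours that are not given for the aortas limit what a difference can be assigned to.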
